A study of Mus musculus with 9 samples.

Results

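The 5 genes of the Nodal signalling pathway described here are the ligand gene Nodal, its co-receptor gene Tdgf1 (Cripto), the transcription factor gene Foxh1 and the inhibitor genes Lefty1 and Lefty2. They are 5 of the 37273 genes (22367 of them protein-coding) that the GENCODE annotation places on chromosomes 1 to 19, X and Y of the mouse genome mm9. Each gene was followed through its window, from 20 kb upstream of the transcription start site (TSS) to 20 kb past the end of the gene, and accessible regions in the promoter, the 3 kb upstream of any TSS, were kept apart from the others. The genes were chosen by their place in the pathway, with earlier results of these data known.

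The data were ATAC-Seq peak files of 9 libraries of mouse embryonic fibroblasts (MEFs), which carried an IRES-EGFP cassette at the Oct4 gene and were reprogrammed with pMXs retroviruses for Oct4, Sox2, Klf4 and c-Myc (OSKM). In ATAC-Seq the Tn5 transposase inserts adapters where chromatin is open, so that tags pile up over accessible DNA. D0 cells were MEFs at day 0 and D3 cells were unsorted at day 3 after induction, while D6T− and D9T− cells were sorted as Thy-1-negative and D12S+ and D16S+ cells as SSEA-1-positive at days 6, 9, 12 and 16, and iPSCs were fully reprogrammed cells. D6 siH3.3 and D6 siNT cells were given siRNA against histone H3.3 or non-targeting siRNA before OSKM. Both then received OSKM and were taken at day 6 of reprogramming. The paper describes this H3.3 knockdown as transient and limited to the start of reprogramming. Both siRNA libraries are also labelled as Thy-1-negative, although the sample sheet of the study gives no sort for them. A sort keeps cells by a surface marker, so the libraries from sorted cells stand for these fractions and not for whole cultures. Each condition had 1 library (no replicates), so no difference between libraries has a replicate check, no test across conditions was run, and the intervals given are 95% exact Poisson intervals of the tag counts, which cover counting error only.

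Values are the pileup at the summit of a region, the number of extended tags that cover it, per 1000000 tags of the library (CPM). The libraries held between 13213117 (D9T−) and 31714845 (D0) tags. Their lowest called pileup ranged from 0.331 CPM (D3) to 0.530 CPM (D9T−). Where no region was called, accessibility under about this level was not detectable at this depth. CPM does not correct for the share of tags that lie in accessible regions: over the 9817 protein-coding promoters called in every library, the median was 0.946 CPM in D0, 2.28 in D3, 3.83 in D6T−, 1.51 in D9T−, 2.44 in D12S+, 2.31 in D16S+ and 1.20 in iPSCs. It was 1.45 CPM in D6 siH3.3 and 1.38 in D6 siNT. Of 7 fibroblast markers, 6 had a promoter region at D0, 7 at D3, 6 at D6T−, 4 at D9T−, 6 in D12S+, 6 in D16S+ and 4 in iPSCs. Of all protein-coding genes, 58.0% had one at D0, 50.4% at D9T− and 63.9% in iPSCs. Of 7 pluripotency markers, 2 had one at D0, 3 at D3, 3 at D6T−, 1 at D9T−, 6 in D12S+, 7 in D16S+ and 7 in iPSCs. Nanog, Zfp42 and Dppa5a had one from D12S+ on and not before, and Dppa4 in D16S+ and iPSCs alone. Esrrb had one already at D0 (0.568 CPM), Tdh at D3 (0.331) and D6T− (0.748), and Pou5f1 in all 9 libraries, at 9.37 CPM or more. The Pou5f1 value was 13.1 CPM at D0 and 14.4 in iPSCs, so it does not set MEFs apart from iPSCs here. Why it was this high at D0 was not tested.

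Nodal is a secreted ligand of the TGF-beta superfamily. It binds activin receptors together with an EGF-CFC co-receptor such as Tdgf1, and the receptors phosphorylate Smad2 and Smad3, which join Smad4 and are led to enhancers by Foxh1. The targets include Nodal itself and the Lefty genes, whose proteins block the ligand and its co-receptor, so that the pathway feeds back on itself. In the early embryo it patterns the epiblast and the left-right axis, and pluripotent cells in culture express several of its members.

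Promoters of all 5 genes were accessible from D12S+ on, and those of Nodal and Tdgf1 in no earlier library. At D0, 2 of the 5 genes had a promoter region (Foxh1 and Lefty1), against 58.0% of all protein-coding genes. At D3 there were 3 of 5 (Foxh1, Lefty1 and Lefty2) against 67.8%, at D6T− the same 3 against 68.3%, and at D9T− only Foxh1 against 50.4%. All 5 genes had a promoter region in D12S+ (63.0% of all protein-coding genes), in D16S+ (63.0%) and in iPSCs (63.9%). In the siRNA libraries, 2 of 5 genes had one in D6 siH3.3 (Foxh1 and Lefty1, against 54.2%) and 2 of 5 in D6 siNT (Foxh1 and Lefty2, against 54.8%). A promoter region in each of D12S+, D16S+ and iPSCs and in none of D0, D3, D6T− and D9T− was found for 2 of the 5 genes, Nodal and Tdgf1, and for 95 of the 22367 protein-coding genes (0.425%). These 2 genes remained when D9T−, the library with the fewest tags, was not required to lack the region (96 genes) and when D6T− was not (190 genes).

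**Figure D1:**
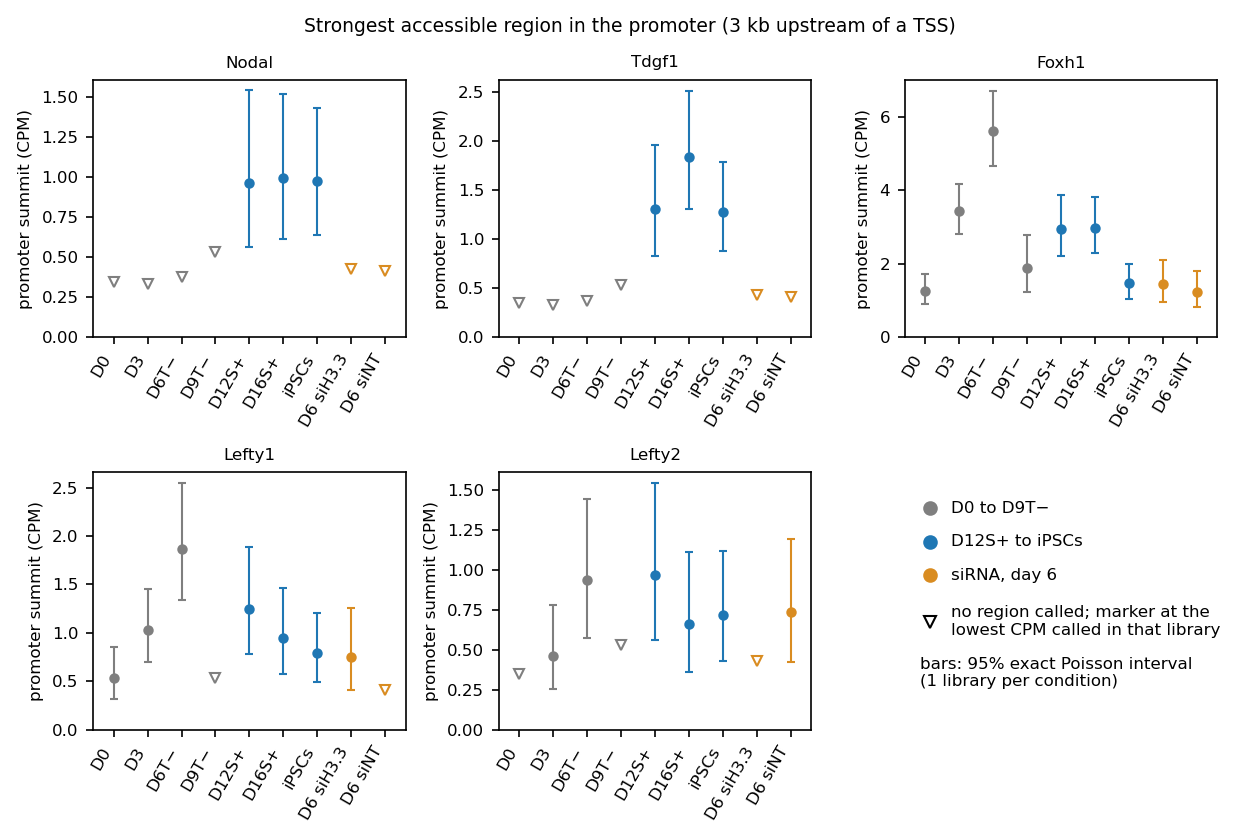
The highest summit of the promoter regions of each gene (vertical axis, CPM, from 0) in the 9 libraries (horizontal axis), with 95% exact Poisson intervals as bars and open triangles at the lowest CPM called where a library had no region. Nodal and Tdgf1 have filled points only in D12S+, D16S+ and iPSCs, while Foxh1 has one in every library, which lies at the TSS of the neighbouring gene Ppp1r16a.

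Nodal, the ligand gene, lies on chr10:60880720-60888086 (forward strand). Its window held 8 distinct regions when those of all libraries were joined, none of them at the promoter of another gene. The promoter region, at −1.9 kb (chr10:60878410-60880155), was called with 17 tags in D12S+, 21 in D16S+ and 26 in iPSCs. This is 0.965 CPM (0.562 to 1.55) in D12S+, 0.992 (0.614 to 1.52) in D16S+ and 0.978 (0.639 to 1.43) in iPSCs. The late libraries were thus alike in CPM, with a ratio of D16S+ over D12S+ of 1.03 (0.516 to 2.07), and no region was called there in the other 6 libraries. Relative to the shared promoters it was not as even, since it reached 0.395 of their median in D12S+, 0.429 in D16S+ and 0.812 in iPSCs. Among the called promoters of each library it stood at percentile 16.7 in D12S+, 17.7 in D16S+ and 45.5 in iPSCs. The 201 bases around its summit in iPSCs (chr10:60878811-60879011, forward strand) are shown because this is the region that only the late libraries had. Matches on either strand to AATNNACA (Foxh1 type), ATGCAAAT (octamer, bound by Oct4 and other POU factors), ACAAAG (Sox type) and CAGACA (Smad type) were to be in capitals, and this sequence holds none of them.
Nodal −1.9 kb: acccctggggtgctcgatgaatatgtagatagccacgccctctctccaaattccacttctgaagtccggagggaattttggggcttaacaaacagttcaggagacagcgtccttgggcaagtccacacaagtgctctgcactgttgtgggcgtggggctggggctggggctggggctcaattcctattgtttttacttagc

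At the 5′ end of Nodal, a region with its summit at +0.2 kb was called earlier than the promoter region. It was absent from the D0 calls and had 0.430 CPM (0.229 to 0.735) at D3 and 0.795 (0.463 to 1.27) at D6T−, with the highest summit then at 565 and 567 bp past the TSS. It was not called at D9T− and had 0.852 CPM (0.477 to 1.40) in D12S+, 0.850 (0.504 to 1.34) in D16S+ and 0.752 (0.460 to 1.16) in iPSCs, with the highest summits at 222, 358 and 195 bp. A pair of libraries had a second, lower summit there, D3 at 342 bp (0.364 CPM) and iPSCs at 611 bp (0.602 CPM), so the positions of the early and late libraries overlapped. A weak region in the intron at +1.2 kb was called at D3 (0.562 CPM) and in D16S+ (0.567 CPM) only. The distal region at −18.3 kb showed no late onset, with 0.631 CPM (0.385 to 0.974) at D0, 0.496 at D3, 0.982 at D6T−, 0.897 in D16S+ and 0.752 (0.460 to 1.16) in iPSCs. Its ratio of iPSCs over D0 was 1.19 (0.609 to 2.34), beside a median ratio of 1.26 over all 11925 promoters called in both libraries. No region of the Nodal window was called in D9T−, D6 siH3.3 or D6 siNT.

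Tdgf1, the gene of the GPI-anchored co-receptor that Nodal needs, lies on chr9:110842114-110848662 (reverse strand). Of both genes with late promoters, it had the stronger region. The region at −1.3 kb had 23 tags in D12S+, 39 in D16S+ and 34 in iPSCs, which is 1.31 CPM (0.828 to 1.96), 1.84 (1.31 to 2.52) and 1.28 (0.886 to 1.79). The ratio of D16S+ over D12S+ was 1.41 (0.822 to 2.47), an interval that includes no difference. None of the other 6 libraries had a region there, although the lowest pileup called in each was at most 0.530 CPM. Relative to the shared promoters, it stood at 0.535 of their median in D12S+, 0.796 in D16S+ and 1.06 in iPSCs. Its percentile among called promoters was 29.3, 48.7 and 67.7.

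The window of Tdgf1 held regions of opposite time-course. The region at −19.0 kb was called in the late libraries alone, with 0.568 CPM (0.272 to 1.04) in D12S+, 0.614 (0.327 to 1.05) in D16S+ and 0.715 (0.430 to 1.12) in iPSCs. The intronic region at +1.6 kb was called at D0 (0.694 CPM, 0.435 to 1.05), D3 (0.496), D6T− (1.12) and D12S+ (0.681) and in neither D16S+ nor iPSCs. The region at −7.6 kb was weak in D0 (0.378 CPM) and D3 (0.662) and stood at 1.40 at D6T−, 0.568 in D12S+ and 0.850 in D16S+, and was not called in iPSCs. It was called in both siRNA libraries, at 0.429 CPM in D6 siH3.3 and 0.551 in D6 siNT, as was the region at +8.2 kb at the same values. Of the 9 regions of the window, 2 lay at promoters of other genes (AC139378.1 and Lrrc2), each called in a single library. D9T− had no region in the Tdgf1 window.

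**Figure D2:**
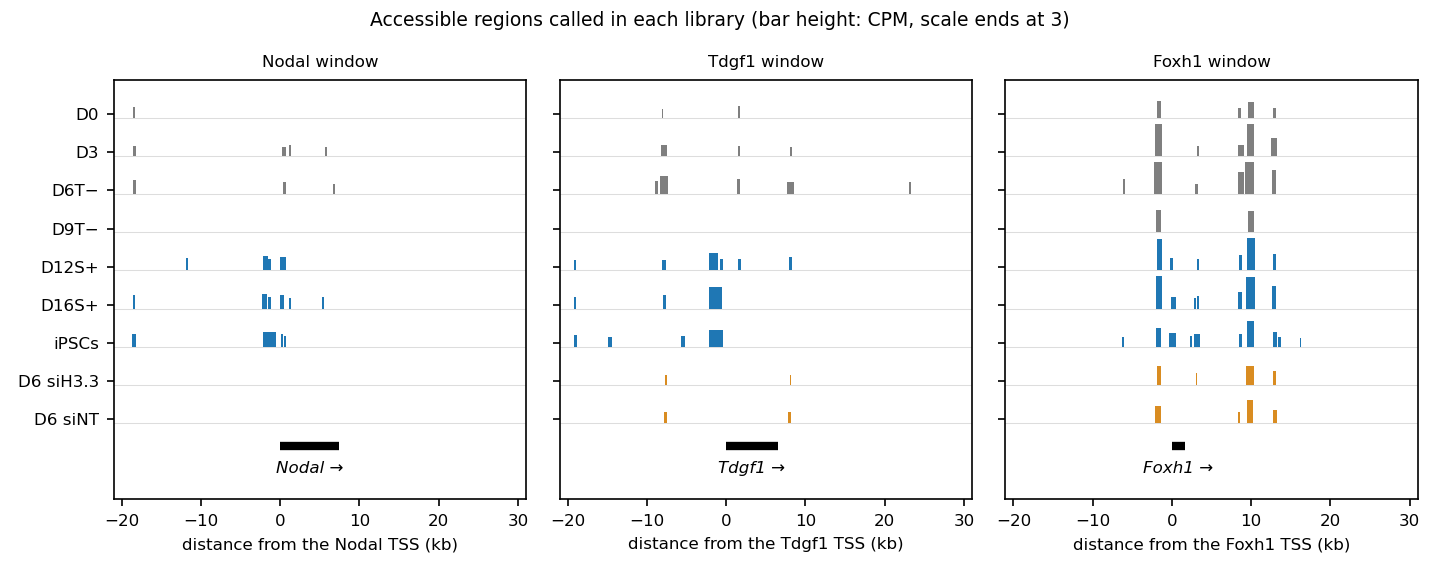
Regions called in the windows of Nodal, Tdgf1 and Foxh1, drawn to scale by distance from the TSS in the direction of transcription (horizontal axis, kb) for each library (rows). Bar height is the CPM of the summit, with the scale ending at 3 CPM, and the black bar is the gene. The regions just upstream of Nodal and Tdgf1 appear only in the D12S+, D16S+ and iPSC rows.

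Foxh1, the gene of the forkhead factor that carries Smad complexes to DNA, is short and lies among other genes (chr15:76498714-76500378, reverse strand). Its 3 kb upstream hold the TSS of Ppp1r16a, which encodes a phosphatase regulatory subunit, and the region at −1.7 kb (chr15:76501626-76502674) lies in both promoters. This shared region was called in all 9 libraries, with 1.26 CPM (0.901 to 1.72) at D0, 3.44 (2.81 to 4.17) at D3, 5.61 (4.65 to 6.71) at D6T−, 1.89 (1.22 to 2.79) at D9T−, 2.95 (2.20 to 3.87) in D12S+, 2.98 (2.29 to 3.81) in D16S+ and 1.47 (1.04 to 2.01) in iPSCs. These values moved with the median of the shared promoters, to which they stood at 1.21 to 1.51 times in the 7 libraries of the time-course. The counts of genes with a promoter region above include Foxh1 in every library through this region. A second region, across the TSS of Foxh1 itself and still within 3 kb upstream of Ppp1r16a (+0.1 kb, chr15:76499836-76500753), was called only late, with 0.738 CPM (0.393 to 1.26) in D12S+, 0.661 (0.361 to 1.11) in D16S+ and 0.941 (0.609 to 1.39) in iPSCs. With a narrower promoter, 1 kb upstream and 100 bp downstream, Foxh1 had a promoter region in these 3 libraries alone and the genes with late promoters became Nodal, Tdgf1 and Foxh1, among 99 protein-coding genes (0.443%).

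Of the 10 regions of the Foxh1 window, 5 lay at promoters of other genes, both regions of its own promoter included. The one with the highest value in any library, at +9.8 kb and at the promoters of Cyhr1 and Kifc2, had 1.20 CPM at D0, 6.64 at D6T− and 2.26 in iPSCs. Its ratio of iPSCs over D0 was 1.88 (1.23 to 2.91), against the median of 1.26 over all promoters. Downstream of the gene and at no other promoter, the region at +3.4 kb was not called at D0 and had 0.529 CPM at D3, 0.467 at D6T−, 0.625 in D12S+, 0.756 in D16S+ and 0.828 (0.519 to 1.25) in iPSCs. Regions at +2.4, +13.5 and +16.2 kb were called in iPSCs only, at 0.376 to 0.527 CPM.

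Lefty2 and Lefty1, the genes of the secreted inhibitors, lie next to each other on chromosome 1 in the same orientation (Lefty2 on chr1:182823239-182829234 and Lefty1 on chr1:182865153-182868531, forward strand), with 41.9 kb between their first TSSs. Their windows overlap, and the region at −17.7 kb from Lefty1 is the one at +24.2 kb from Lefty2. The strongest region near either gene that lay at no other promoter was, in the time-course from D9T− on, the one at −4.3 kb from the Lefty2 TSS (chr1:182818297-182819518), just beyond its promoter. It was not called at D0 and had 1.32 CPM (0.945 to 1.80) at D3, 2.34 (1.73 to 3.08) at D6T−, 2.19 (1.47 to 3.15) at D9T−, 2.38 (1.72 to 3.22) in D12S+, 2.31 (1.71 to 3.06) in D16S+ and 1.66 (1.20 to 2.22) in iPSCs. Every library given OSKM thus had this region, the siRNA libraries included, while the MEFs did not, at a lowest pileup called of 0.347 CPM. Relative to the shared promoters it stood at 0.580 of their median at D3, 0.610 at D6T−, 1.45 at D9T−, 0.977 in D12S+, 1.00 in D16S+ and 1.38 in iPSCs.

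The region at −19.0 kb from Lefty2 had the same libraries, with 0.662 CPM at D3, 1.22 at D6T−, 0.530 at D9T−, 1.19 in D12S+, 1.13 in D16S+ and 0.790 in iPSCs. In the promoter of Lefty2, a region at −3.0 kb was called at D6T− (0.935 CPM, 0.571 to 1.44), in D12S+ (0.965), in D16S+ (0.661) and in iPSCs (0.564), and not at D0, D3 or D9T−. The gene has a second TSS, and a region beside it at +1.3 kb was called with 0.410 CPM at D0, 0.430 at D3, 0.467 at D6T−, 0.661 in D16S+ and 0.715 in iPSCs, and in none of D9T−, D12S+ and the siRNA libraries. The region at +20.9 kb ran the other way, with 1.07 CPM (0.742 to 1.50) at D0, 1.32 at D3, 4.02 (3.22 to 4.97) at D6T−, 1.36 at D9T− and 1.02 in D12S+, and was not called in D16S+ or iPSCs, where the lowest pileup called was 0.425 and 0.376 CPM.

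At Lefty1, the upstream region at −15.2 kb came late and the one at −10.1 kb was weak at D3 and higher late. The region at −17.7 kb, farther still, went the other way. It was called at D0 (0.504 CPM), D3 (0.496) and D6T− (0.608) and in no other library. The region at −15.2 kb (chr1:182849761-182850175) was called in D12S+ (0.511 CPM, 0.234 to 0.970), D16S+ (0.992, 0.614 to 1.52) and iPSCs (0.790, 0.489 to 1.21) and in no other library. The region at −10.1 kb (chr1:182854781-182855579) had 0.397 CPM (0.205 to 0.693) at D3, 0.965 (0.562 to 1.55) in D12S+, 1.37 (0.917 to 1.97) in D16S+ and 0.790 (0.489 to 1.21) in iPSCs. The D3 region ended at the downstream side of the element, with its summit at −9712 bp, whereas those of the late libraries lay between −9977 and −10161 bp. Nearer to the gene, the region at −3.7 kb was called from D0 (0.725 CPM) through D6T− (1.92, 1.38 to 2.60) to D12S+ (0.568) and in neither D16S+ nor iPSCs. The D16S+ and iPSC libraries thus had the −15.2 and −10.1 kb regions without the −3.7 kb region. D12S+ had the −15.2, −10.1 and −3.7 kb regions, and none of these late libraries had the one at −17.7 kb.

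The promoter value of Lefty1 came, except in D12S+, from a region at +1.9 kb, which lies at the second TSS of the gene. Its summit stood at 0.536 CPM (0.312 to 0.858) at D0, 1.03 at D3, 1.87 (1.34 to 2.55) at D6T−, 0.908 in D12S+, 0.945 in D16S+ and 0.790 (0.489 to 1.21) in iPSCs. This region was accessible in fibroblasts already, and its ratio of iPSCs over D0 was 1.47 (0.741 to 2.98). Upstream of the first TSS, the region at −1.2 kb was called at D6T− (0.654 CPM), in D12S+ (1.25, 0.783 to 1.89) and in iPSCs (0.640), and not in D16S+. With the outermost TSS alone, the promoter of Lefty1 was therefore not called at D0, and the log2 ratio of its highest late over its highest early value was 0.93 in place of −0.58.

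**Figure D3:**
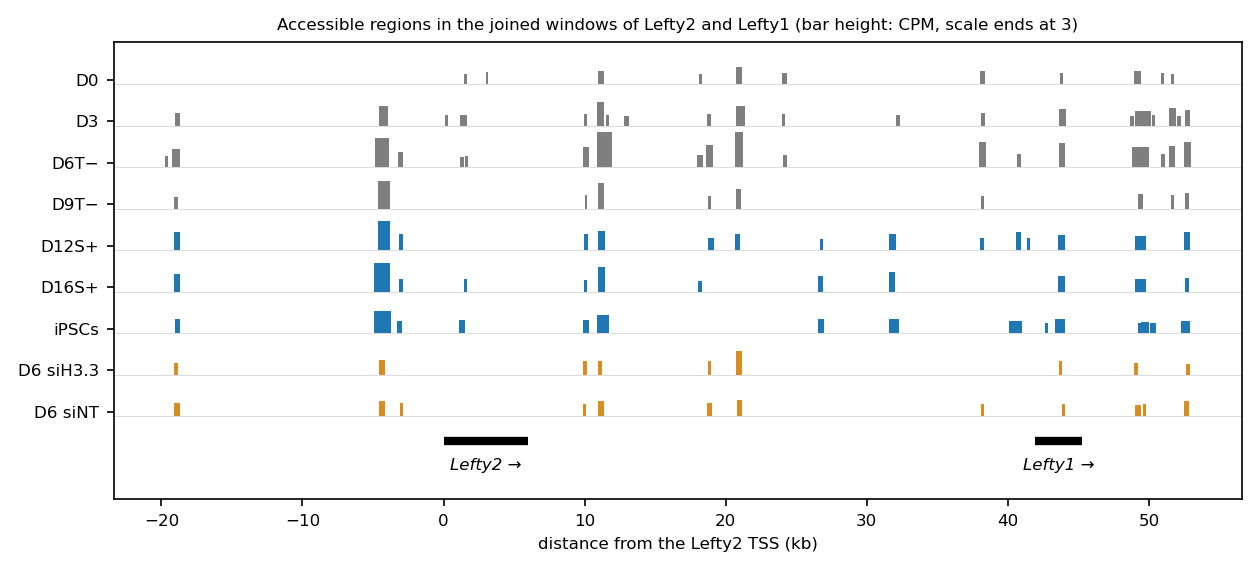
Regions called in the joined windows of Lefty2 and Lefty1, drawn to scale by distance from the Lefty2 TSS (horizontal axis, kb) for each library (rows), with bar height as the CPM of the summit on a scale that ends at 3. The column at −4.3 kb is filled in every row except D0, the one at +20.9 kb is empty in D16S+ and iPSCs, and the late rows have regions upstream of Lefty1 that the early rows lack or hold weakly.

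Sequences of 3 Lefty regions are given for their time-courses. Lefty2 −4.3 kb (chr1:182818827-182819027) was called from D3 on and Lefty1 −15.2 kb (chr1:182849883-182850083) only late. Lefty1 −10.1 kb (chr1:182854892-182855092) was weak at D3, not called at D6T− or D9T−, and higher late. Each sequence shows the 201 bases around the iPSC summit in mm9 on the forward strand. Capitals mark matches on either strand to the Foxh1, octamer, Sox and Smad types spelled out for Nodal, none of which overlaps another in these sequences.
Lefty2 −4.3 kb: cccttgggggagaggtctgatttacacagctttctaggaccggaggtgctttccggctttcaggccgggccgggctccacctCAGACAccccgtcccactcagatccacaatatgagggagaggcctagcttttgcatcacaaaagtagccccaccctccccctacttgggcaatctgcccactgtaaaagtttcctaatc
Lefty1 −10.1 kb: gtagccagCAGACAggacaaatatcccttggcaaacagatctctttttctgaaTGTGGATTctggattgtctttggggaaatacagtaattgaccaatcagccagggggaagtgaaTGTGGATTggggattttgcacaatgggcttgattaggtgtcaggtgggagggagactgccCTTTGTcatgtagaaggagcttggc
Lefty1 −15.2 kb: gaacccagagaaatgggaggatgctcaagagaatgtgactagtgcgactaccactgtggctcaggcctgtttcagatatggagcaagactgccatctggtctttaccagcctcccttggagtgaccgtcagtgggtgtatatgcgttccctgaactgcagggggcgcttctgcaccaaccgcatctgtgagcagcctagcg

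The Lefty1 −10.1 kb sequence held 2 matches of the Foxh1 type, both reading TGTGGATT, at bases 54 and 117 counted from its 5′ end, together with 1 of the Sox type and 1 of the Smad type. The Lefty2 −4.3 kb sequence held 1 match of the Smad type and the Lefty1 −15.2 kb sequence none. Over all 33 iPSC regions of the 5 windows, cut the same way, 2 (6.06%) held the Foxh1 type, against 7.17% of the 61332 iPSC regions of the genome. The other shares were 3.03% against 1.82% for the octamer, 15.2% against 16.2% for the Sox type and 18.2% against 17.5% for the Smad type. The shares of the member regions were near those of the genome for each motif, so the letters marked are a description of single sequences. The other region with the Foxh1 type lay downstream of Lefty1, with its summit 10703 bp from the TSS, at the promoter of Tmem63a.

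Across the 5 windows, 52 distinct regions were found over the 9 libraries, with those of both Lefty windows counted once, 13 of them at promoters of other genes. Of these, 5 were called in D12S+, D16S+ and iPSCs and in none of D0 to D9T− (Nodal −1.9 kb, Tdgf1 −1.3 and −19.0 kb, Foxh1 +0.1 kb and Lefty1 −15.2 kb), against 1.63% of all 210151 regions. Another 4 were called in every time-course library from D3 but not at D0, against 1.05%, among them Lefty2 −19.0 and −4.3 kb, and Lefty1 +10.8 kb at the promoter of Tmem63a. The reverse pattern, called in D0, D3 and D6T− and in neither D16S+ nor iPSCs, was found for 5 of 52 against 11.0% of all regions, a share near the background. These were Tdgf1 +1.6 kb, Lefty1 −17.7, −3.7 and +9.8 kb and Lefty2 +20.9 kb. Outside promoters, the windows held 16 regions of the 81364 at D0, 29 of 107765 at D3, 28 of 133132 at D6T− and 11 of 36708 at D9T−. They held 21 of 57533 in D12S+, 21 of 50890 in D16S+ and 24 of 61615 in iPSCs, so the late libraries had more than D0 here with fewer regions in the genome. Reads of 51 bp could be placed in most of this sequence: between 94.2% and 96.7% of the 51-base words of each window occur once in mm9, and 89.7% in the gene body of Lefty1, the lowest of the gene bodies.

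**Figure D4:**
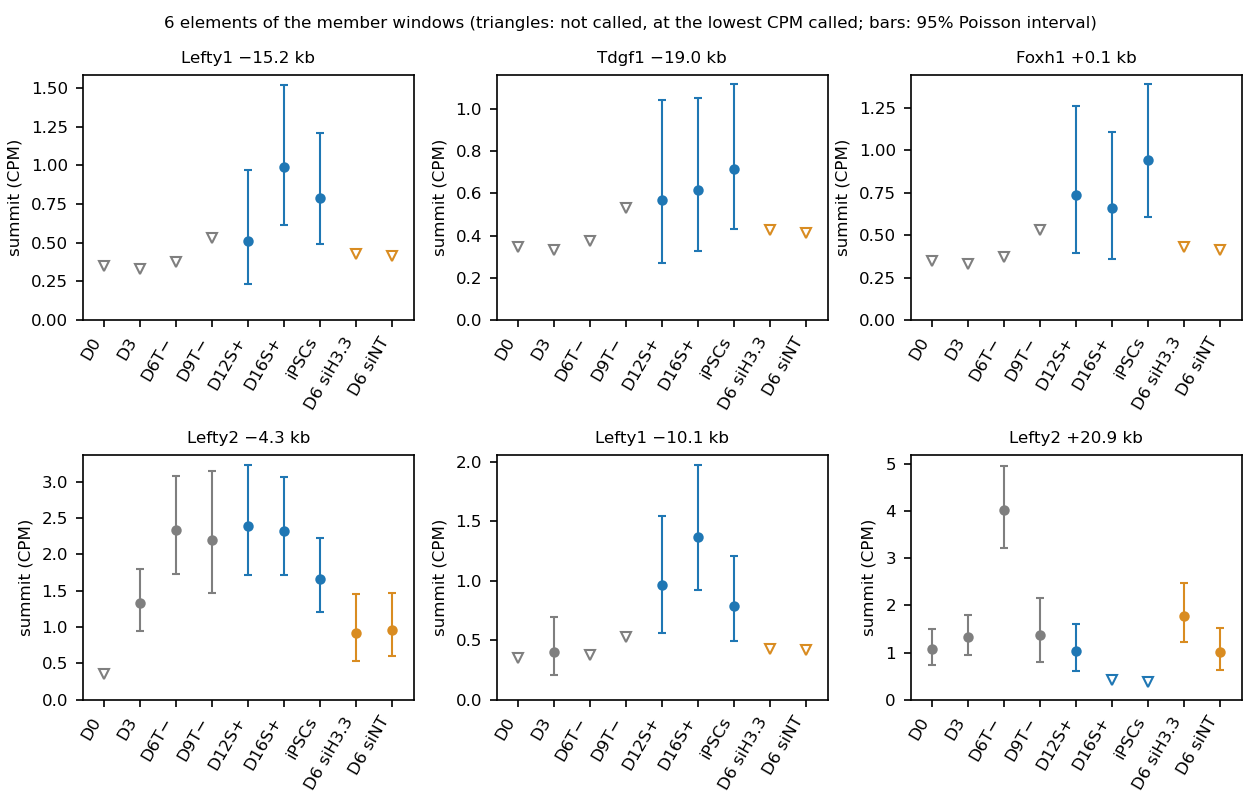
Summit CPM (vertical axes, from 0) of 6 regions in the 9 libraries, with 95% exact Poisson intervals and open triangles at the lowest CPM called where no region was called. The top row shows regions called from D12S+ on, and the bottom row shows Lefty2 −4.3 kb, called in every library except D0, Lefty1 −10.1 kb, which was weak at D3 and higher late, and Lefty2 +20.9 kb, absent from the D16S+ and iPSC calls.

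The early, transient knockdown of H3.3 was compared with the non-targeting siRNA in cells taken at day 6. At the 5 genes, 3 of the 52 regions were called in D6 siNT and not in D6 siH3.3, against 4.48% of all regions: Foxh1 +8.7 kb (0.551 CPM, at the promoter of Cyhr1), Lefty1 −3.7 kb (0.597) and Lefty2 −3.0 kb (0.734). The reverse held for 1 region, Foxh1 +3.4 kb (0.643 CPM in D6 siH3.3), against 4.87%. All 4 were within 2-fold of the lowest pileup called in the library that lacked them (0.429 CPM in D6 siH3.3 and 0.413 in D6 siNT). For the strongest region of each window, the ratio of D6 siH3.3 over D6 siNT on the log2 scale was −0.36 (−1.86 to 1.05) for Tdgf1, −0.38 (−1.14 to 0.36) for Foxh1, −0.29 (−1.39 to 0.77) for Lefty1 and 0.81 (−0.01 to 1.66) for Lefty2. For Lefty1 the strongest region was not the same one in both libraries (+1.9 kb in D6 siH3.3 and +10.8 kb in D6 siNT). Each of these intervals includes 0 and reaches past 2-fold in at least 1 direction, so a difference of that size could not be told from none at this depth. The Foxh1 value was that of the region at +9.8 kb, at the promoters of Cyhr1 and Kifc2. The −1.7 kb region, shared by the promoters of Foxh1 and Ppp1r16a, had a ratio of 1.17 (0.659 to 2.07).

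The value of Lefty2 came from its +20.9 kb region, with 1.77 CPM (1.22 to 2.48) in D6 siH3.3 and 1.01 (0.633 to 1.53) in D6 siNT, a ratio of 1.75 (0.990 to 3.15) beside a median of 1.04 over the 11470 promoters called in both. Among regions called in both libraries, the ratio farthest from 1 was that of Lefty1 +10.8 kb, at the promoter of Tmem63a, with 0.482 CPM in D6 siH3.3 and 0.918 in D6 siNT, a ratio of 0.525 (0.211 to 1.21). Lefty2 −4.3 kb had 0.911 CPM (0.530 to 1.46) and 0.964 (0.597 to 1.47), a ratio of 0.945 (0.468 to 1.88). The Lefty1 +1.9 kb region was called in both, at 0.750 and 0.597 CPM, but only that of D6 siH3.3 reached past the second TSS into the promoter, so the difference in promoter counts of Lefty1 rests on the edge of a region. Neither library had the late regions of Nodal and Tdgf1. Beside them, the D6T− library of the time-course had 2.34 CPM at Lefty2 −4.3 kb and 4.02 at Lefty2 +20.9 kb, with a shared promoter median of 3.83 CPM against 1.38 in D6 siNT.

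Other genes of the Nodal and Activin pathway, 31 in all, were read in the same way. A promoter region was present for 18 of them at D0 (58.1%, against 58.0% of all protein-coding genes). At D3 there were 26 (83.9% against 67.8%), at D6T− 24 (77.4% against 68.3%) and at D9T− 16 (51.6% against 50.4%). D12S+ had 24 (77.4% against 63.0%), D16S+ 25 (80.6% against 63.0%) and iPSCs 27 (87.1% against 63.9%). The share thus lay above that of all protein-coding genes at D3 already, and near it at D0 and D9T−. Of D0 and iPSCs, 17 had a region in both and 10 in iPSCs but not at D0, as did 10.6% of all protein-coding genes. These 10 were the ligand genes Gdf1, Gdf3 and Inhbb, the type I receptor gene Acvr1c, the convertase gene Pcsk6, the inhibitor and corepressor genes Dand5, Fst and Trim33, and the target genes Mixl1 and Fgf8. All of them except Gdf3 and Mixl1 already had a region at D3, from 0.430 CPM (Fgf8) to 1.98 CPM (Trim33). Cfc1, which encodes the other EGF-CFC co-receptor, had one at D0 only (0.347 CPM, the lowest called), against 4.65% of all genes, and Cer1, Gsc and T had none in either. Gdf3 had the course of Nodal and Tdgf1, with 0.965 CPM in D12S+, 0.897 in D16S+ and 0.752 in iPSCs and no region before.

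Among the 17 pathway genes with a promoter region in D0 and iPSCs, the median ratio of iPSCs over D0 was 1.45, beside 1.26 over all 11925 promoters. The corepressor gene Tgif2 stood at 3.14 (1.82 to 5.64), with 0.599 CPM at D0 and 1.88 in iPSCs. The type I receptor gene Acvr1b stood at 2.06 (1.19 to 3.66), while 10.4% of all promoters were at least 2-fold higher in iPSCs. Smad3, a transducer of the pathway, was the one at least 2-fold lower, at 0.457 (0.250 to 0.802), with 1.48 CPM at D0, 3.93 at D6T− and 0.677 in iPSCs, and 0.948% of all promoters were as much lower. The other transducers were nearer to even, Smad2 at 1.13 (0.690 to 1.84) and Smad4 at 0.764 (0.474 to 1.21). Between the siRNA libraries, 17 of the 31 genes had a region in both, with a median ratio of 1.01 beside 1.04 over all promoters and none at 2-fold. Gsc had one in D6 siH3.3 only, as did 2.97% of all protein-coding genes, and Furin and Trim33 had one in D6 siNT only, as did 3.55%.

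**Figure D5:**
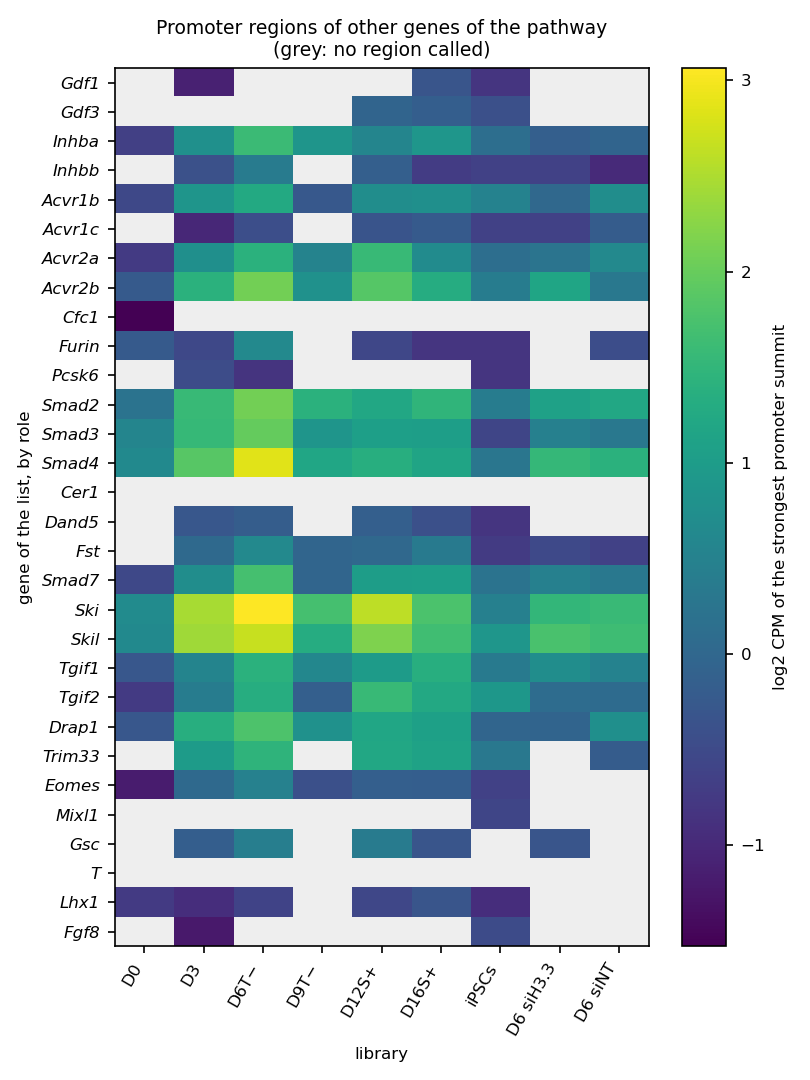
Promoter accessibility of other pathway genes (rows, ordered by role) in the 9 libraries (columns), as the log2 CPM of the strongest promoter summit, with grey where no region was called. Gdf3 is coloured in D12S+, D16S+ and iPSCs only, and the D6T− column is the brightest for most genes, as is the median of the promoters shared by all libraries (3.83 CPM).

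Promoter patterns most like those of the 5 genes were sought among 15013 protein-coding genes with a promoter region in at least 3 libraries, by Pearson's r of log2 CPM over the 9 libraries, with the lowest pileup called in place of a missing region. For Nodal they were 4930447C04Rik (r = 0.997), Gm7221 (0.996) and Mup6 (0.994), and for Tdgf1 Gm6871 (0.998), Lrrn4 (0.997) and Wnt8a (0.995). For Lefty1 they were Tmem184a (0.985), 2610507B11Rik (0.982) and 2010321M09Rik (0.980), and for Lefty2 Pbxip1, St3gal6 and Fbxo27 (0.943, 0.943 and 0.942). For Foxh1 they were Ppp1r16a, which holds the same region, Nol6 (0.996) and Cad (0.993), and 3666 genes exceeded 0.9. All genes share the depth of the libraries, and a gene called in the same 3 libraries as Nodal has nearly the same profile by construction, so these values describe likeness only.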

How the data were processed

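ATAC-Seq libraries of 50000 cells were sequenced by the authors, who mapped the reads to mm9 with STAR, discarded duplicates (Picard), mitochondrial and ambiguous reads, and called peaks separately in each library with MACS2 2.1.0.20151222 without a control. Per the file headers, tags of 51 bp were extended to 200 bp, the local background was off and the q-value cutoff was 0.05. The deposited pileup is a signal of unscaled tag counts at a summit, the deposited fold enrichment is a ratio to an even genome-wide background, and the deposited significance is given as −log10 p-value and −log10 q-value.

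Summits of one peak were joined and overlapping peaks of a library merged. The highest pileup was divided by the total tags of the header (CPM). Genes came from GENCODE vM1 on mm9 (NCBIM37), and 0 of 709353 summits lay past a chromosome end. Regions of different libraries that shared at least 1 bp were joined into 1 distinct region, and the shares of all regions use these. Ratios have exact conditional 95% intervals. With 1 library per condition, no test was made, and the background share of genes or regions stands in its place. Libraries with fewer tags miss weak regions: the lowest pileup called was 0.530 CPM at D9T− and 0.331 at D3. Members, pathway genes, markers and motifs were chosen with earlier results of these data known, and genes were named where they were members, likest in pattern, or pathway genes in 1 library of a pair or past 2-fold. Alternatives were a −log10 q-value of at least 5, the same number of strongest regions per library, other promoters and windows, and other scalings. Alternatives for the count of late promoters were added after seeing the data. The functions were tested on simulated data. Python 3.11.15 was used with scipy 1.17.1, pandas 2.3.3, pysam 0.24.0, samtools 1.23.1, matplotlib 3.10.9 and numpy 2.4.6. Other assays of the study were not analysed here, and a few genes and a sequence are not reported here.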

Additional observations from a re-analysis of the deposited data

How the results depend on the processing

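The late promoters of Nodal and Tdgf1 held in each alternative tried, and Lefty2 joined them when each library kept an equal number of its strongest regions (442 protein-coding genes, 1.98%) and Foxh1 with the narrow promoter. Of the values for single genes, 85 of 96 stayed within their counting interval. This count includes the ratios of the siRNA libraries, which use the strongest region of the whole window. A narrower promoter or the outermost TSS could not move these, so the count overstates how much was tried. The log2 ratio of the highest late over the highest early value changed sign at all 5 genes in at least 1 alternative. For Foxh1, whose intervals lay below 0, the promoter went from −0.91 to 0.83 with the narrow promoter. This is not a measured reversal of 1 region. The −0.91 is that of the region at −1.7 kb, shared with Ppp1r16a. The 0.83 sets the late region at +0.1 kb against the lowest pileup called, since no early library had a region in the narrow promoter. The strongest outside region of Foxh1 went from −1.09 to 0.11 when scaled to the shared promoters. The promoter of Lefty1 went from −0.58 to 0.21 with that scaling and to 0.93 with the summit inside the promoter or the outermost TSS only. The promoter of Lefty2, at 0.05, became −0.49 when each library kept an equal number of regions and −0.03 with fold enrichment. With an equal number of regions, the promoter of Nodal went from 0.90 to −0.45. No early library had a Nodal promoter region in either setting, so both early values are the lowest pileup called or kept and not measured ones. The −0.49 of Lefty2 likewise has no measured early value. The strongest outside region of Nodal went from −0.13 to 0.10 with windows of 10 kb, and that of Tdgf1 from −0.72 to 0.39 with windows of 50 kb. The causes were not tested.

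Regions outside promoters, 179 in all (84 in D0 to D9T− and 66 in D12S+ to iPSCs), became 110 (51 and 43) at a −log10 q-value of at least 5, 105 (40 and 43) with the same number of strongest regions, 412 (210 and 147) with windows of 50 kb and 107 (50 and 42) without those at promoters of other genes. The 16 outside regions of D6 siNT and 13 of D6 siH3.3 became 9 and 7 at the stricter q-value. Members with a promoter region in the siRNA libraries fell from 2 to 1 in both with the narrow promoter, and to 1 in D6 siH3.3 with the outermost TSS only. With the narrow promoter the 1 gene was Lefty1 in both libraries, which had not been among the 2 of D6 siNT (Foxh1 and Lefty2). No paired analysis was possible because each condition had 1 library. Depth limits D9T− most, since 7 tags were its lowest pileup called.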
